A study of Mus musculus with 4 samples.

Results

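The unnamed probe sets of the control id block are the 6612 probe sets whose ids run from 10338001 to 10344613 and for which the platform annotation lists no gene. They make up 18.6% of the 35556 probe sets of the table, and 54.4% of the 12146 probe sets that name no gene. The block spans 6613 ids, of which 1 (10338063) was not analysed here. The next id, 10344614, opens the gene-level probe sets. Members were chosen by id and annotation alone, so no measured value entered the choice.

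Whole-brain RNA of adult male C57BL/6J mice was hybridized to 4 Mouse Gene 1.0 ST arrays, 2 of ethanol-exposed and 2 of control mice. RNA of 3 males, each of another litter, was combined per array, so the spread within a group is that between 2 pools. Ethanol pups were injected subcutaneously on postnatal days 4 and 7 with 2 doses of 2.5 g/kg ethanol in saline, 2 hours apart, and control pups received saline alone. By the labels each ethanol-exposed male had a littermate among the controls, weaning was at day 25 and collection at day 60, and the methods give other days for both. Control 1, control 3, ethanol 2 and ethanol 4 are the titles of the arrays. For control 1 and ethanol 4 a separate treatment field of the labels gives the opposite group, and title and source name were followed here.

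On arrays of this design the maker places control probe sets ahead of the gene-level ones. As background, such controls are of several kinds. Spiked transcripts report on labelling and hybridization, antigenomic probes match no mouse sequence and read non-specific binding at a given GC content, and further probe sets lie in exons and introns of genes used in most tissues. An exon probe set reads mature RNA, whereas an intron probe set reads unspliced RNA and is usually dim. The sources used here do not give the kind of each member, and no member was assigned a kind from its signal. Probe sequences and genome positions of the members were not analysed here.

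Neuronal markers stood high on all arrays, with log2 signals of 12.65 to 13.34 for Snap25, Syt1 and Stmn2, and the mean of the liver markers Alb and Apoa1 was 5.43 to 5.64. Of the pituitary markers, Pomc had 5.48 and 5.50 in the ethanol pools and 5.95 and 6.09 in the control pools. All 4 values lay under the upper level of the receptor genes used as a dim reference below. That level was 6.45 on control 1, 6.40 on control 3, 5.99 on ethanol 2 and 6.28 on ethanol 4. The lower Pomc values in ethanol were thus read at dim signal, where the receptor genes also had a median difference of -0.21. Gh, Prl and Cga set 1 array apart. Growth hormone, Gh, had a log2 signal of 6.53 on ethanol 2 and of 12.19 to 12.26 on the other 3 arrays. The counts past the study's limits are therefore also given without ethanol 2. Array medians over all probe sets were 6.61 and 6.51 in the control pools but 6.33 and 6.38 in the ethanol pools. The median difference of all probe sets (ethanol minus control) was -0.15, and -0.0042 once the 4 arrays had been set to equal quantiles, so the main results are given in both forms. Less RNA per cell and fewer cells of a type cannot be told apart in pooled tissue.

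The signals of the members covered nearly the whole range of the arrays. On control 1 they ran from a log2 signal of 4.08 to 13.82, with a median of 6.59 and quartiles of 5.62 and 7.90. On control 3 the median was 6.45, with quartiles of 5.51 and 7.78. On ethanol 2 it was 6.19, with quartiles of 5.30 and 7.69, and on ethanol 4 it was 6.27, with quartiles of 5.35 and 7.71. Both ethanol medians lay below both control medians. At the upper end the order was the other way, as the 95th percentile was 10.81 and 10.79 in the control pools but 10.90 and 10.94 in the ethanol pools.

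**Figure D1:**
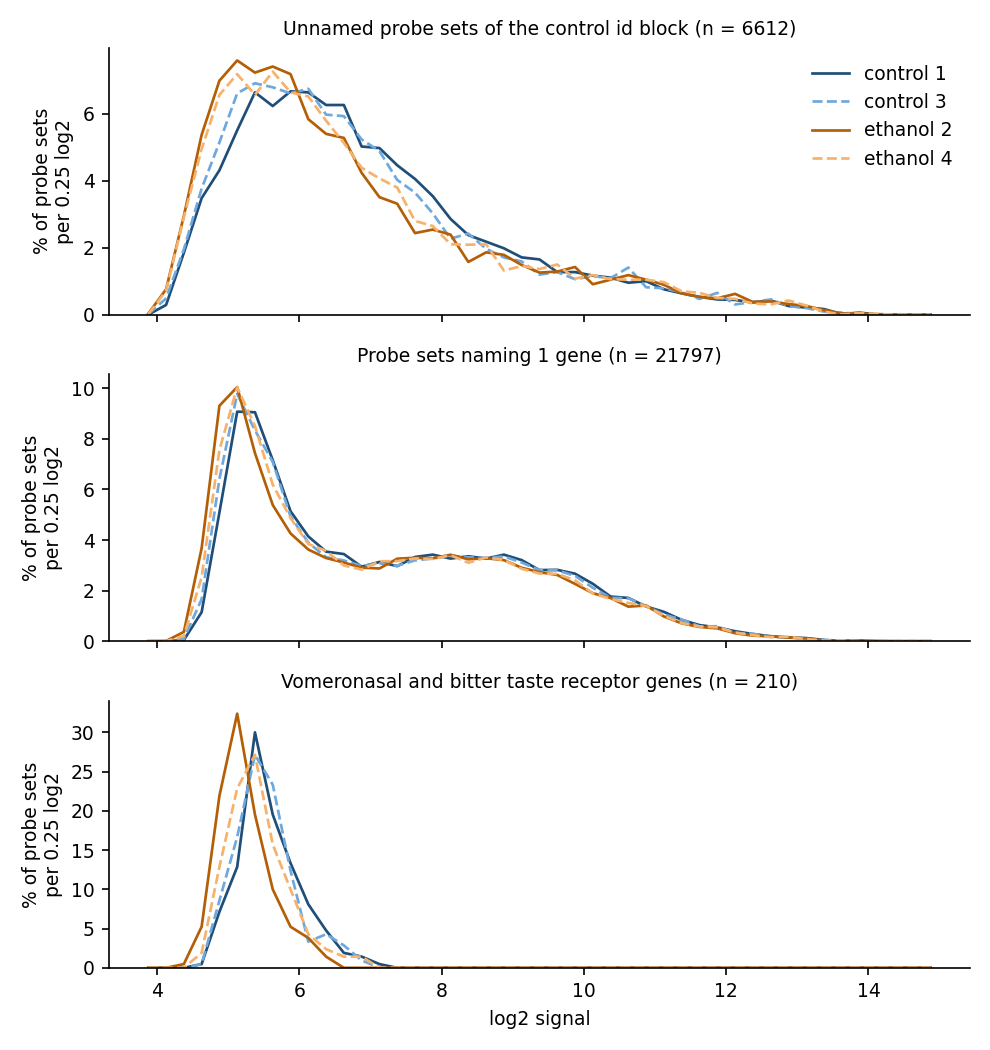
Share of probe sets (y axis, percent per 0.25 log2) by log2 signal (x axis) on each of the 4 arrays, for the 6612 members, the 21797 probe sets naming 1 gene and 210 vomeronasal and bitter taste receptor genes. The members have a broad rise with a long bright tail. In each bin from 4 to 5 both ethanol arrays hold a larger share of the members than both control arrays.

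For comparison, the 21797 probe sets that name 1 gene had higher array medians, from 6.71 to 6.94, and the 5534 unnamed probe sets with higher ids had lower ones, from 5.65 to 5.91. The vomeronasal and bitter taste receptors, which serve smell and taste outside the brain, gave a reference for probe sets of genes with no known use there. Their 210 probe sets had medians of 5.18 to 5.50, and their 95th percentile was 6.45 on control 1, 6.40 on control 3, 5.99 on ethanol 2 and 6.28 on ethanol 4. Of the members, 2726 (41.2%) were above this 95th percentile on all 4 arrays and 2428 (36.7%) were above it on none. A further 134 members (2.03%) were above it on both ethanol arrays alone, and 113 (1.71%) on both control arrays alone. For probe sets naming 1 gene the last 2 shares were 0.606% and 0.0459%, and for all probe sets 0.965% and 0.397%. The level itself was lower on the ethanol arrays. The receptor genes had a median difference of -0.21 (ethanol minus control), against -0.14 for probe sets naming 1 gene. A probe set could thus lie above it on the ethanol arrays alone without a higher signal there. This use of the receptor genes as a level was chosen after values had been seen.

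By mean log2 signal over the 4 arrays, 748 members lay from 4 to 5, 1890 from 5 to 6, 2538 from 6 to 8, 867 from 8 to 10 and 569 at 10 or more. The dimmest 5 were the dimmest of the whole table. Probe set 10343327, the lowest, had 4.08 in both control pools, 4.03 in ethanol 2 and 4.01 in ethanol 4. The others, 10339556, 10339333, 10343411 and 10343286, had means of 4.06 to 4.08, and their groups differed by -0.13 to 0.05, none past an unadjusted p of 0.05 in limma.

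The 10 brightest members had means of 13.31 to 13.92 and ranked between 12 and 72 in the table. Probe set 10342763 led with 13.62 and 13.82 in the control pools against 14.11 and 14.14 in the ethanol pools. It was higher by 0.41 (standard error 0.10, adjusted p = 0.175 in limma; n = 2 arrays per group), with both ethanol arrays above both control arrays, and passed the study's limits (1.2-fold, unadjusted p under 0.05) as deposited but not after quantile normalization. Its call was also lost without control 1 (0.31), ethanol 2 (0.42) or ethanol 4 (0.40). Probe set 10341376 had 13.82 and 13.73 in the control pools against 13.79 and 13.75 in the ethanol pools, so that the groups overlapped. Probe set 10343086 had 13.47 and 13.43 in the control pools against 13.20 and 13.17 in the ethanol pools. Its difference of -0.26 passed the same limits, and did so neither after quantile normalization (-0.19) nor with any 1 array left out (-0.28 to -0.25). The other 7 (10342828, 10339787, 10339578, 10338504, 10341299, 10342860 and 10338059) differed by -0.20 to 0.25, and none passed the limits as deposited. After quantile normalization 10342828 (0.37) and 10342860 (0.29) passed them.

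Signal varied little along the ids at the scale examined. In 7 successive stretches of up to 1000 ids, the median of the members' mean log2 signals ran only from 6.32 to 6.43, and the brightest member of a stretch had a mean of 13.21 to 13.92. The share with a mean of 10 or more was 7.81% to 9.70% per stretch. The median difference between the groups ran from -0.22 to -0.14, and 29.5% to 34.5% of a stretch were past the study's limits. Bright and dim members were thus interleaved along the block, and no stretch of this length stood for 1 level of signal. Shorter stretches were not summarized, and the spread between arrays was not even along the ids. A short stretch at the start of the block was picked after values had been seen. From 10338001 to 10338068 most members had control arrays closer together than the block's median size of 0.28. Among them 10338007 had 4.448 and 4.446 in the control pools, whereas 10338017 had 12.48 and 12.06.

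No 2 members carried the same values on all 4 arrays, so the 6612 members held 6612 distinct profiles. No member shared its profile with a probe set outside the block either. Identical profiles were found among the gene-level ids, where 313 of 5534 unnamed probe sets (5.66%, in sets of up to 50) and 261 of 1613 that name several genes (16.2%, in sets of up to 18) shared all 4 values with another of their class. Among probe sets naming 1 gene it was 129 (0.592%). On a single array, from 102 (control 1) to 126 (control 3) members had a value that another member also had. No members matched on both control arrays, on both ethanol arrays or on any 3 arrays. Within a tolerance of 0.01 on every array, 2 members, which form a single pair, matched, and the median distance from a member to its nearest neighbour, taken on the array where the 2 differed most, was 0.11.

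Differences between arrays were larger in the block than in the gene probe sets, within as well as between groups. Control 1 and control 3 differed by a median size of 0.28 in log2, ethanol 2 and ethanol 4 by 0.26. For probe sets naming 1 gene both values were 0.10. Between groups, the median sizes were 0.43 for control 1 against ethanol 2, 0.42 for control 1 against ethanol 4, 0.35 for control 3 against ethanol 2 and 0.35 for control 3 against ethanol 4. The matching values of probe sets naming 1 gene were 0.20, 0.17, 0.16 and 0.13. All 4 comparisons between groups therefore exceeded both comparisons within groups, in the members as in the gene probe sets. After quantile normalization this order held for the members, with 0.32 to 0.38 between groups and 0.27 and 0.26 within. It also held for probe sets naming 1 gene, with 0.114 to 0.126 between groups and 0.095 and 0.096 within.

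**Figure D2:**
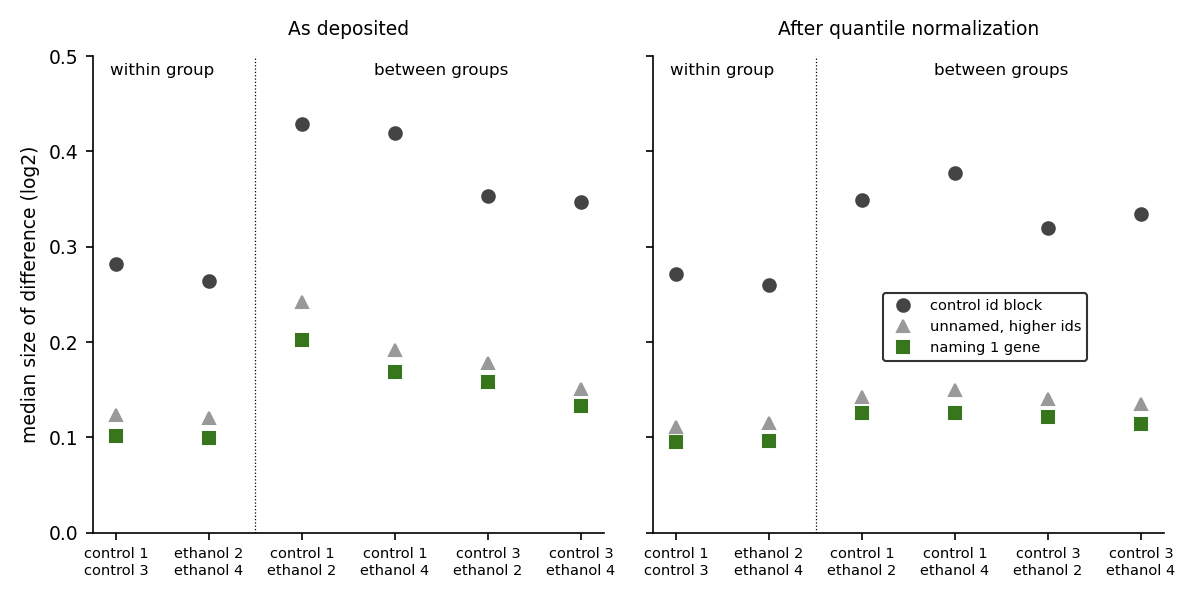
Median size of the log2 difference (y axis) for each of the 6 pairs of arrays (x axis), as deposited and after quantile normalization, for the control id block, for unnamed probe sets with higher ids and for probe sets naming 1 gene. In the block the within-group pairs lie at 0.26 to 0.28, above every pair of the gene probe sets in both forms.

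A size of at least 1.2-fold separated the 2 control pools in 52.8% of the members and the 2 ethanol pools in 50.1%. The shares for probe sets naming 1 gene were 11.5% and 9.90%. A small majority of the members thus reached the study's fold limit between pools that were treated alike. Between groups the members' shares were 60.4% to 68.2%. Of the members 490 differed by at least 2-fold within the control group and 242 within the ethanol group, against 7 and 9 of the probe sets naming 1 gene. Control 1 took part in the largest counts, with 938 members at 2-fold or more against ethanol 2 and 1012 against ethanol 4, whereas control 3 had 587 and 635. Pearson's r across members, which are not independent replicates, was 0.954 within the control group, 0.974 within the ethanol group and 0.927 to 0.953 between groups. Across probe sets naming 1 gene r was 0.994 to 0.997 for the 6 pairs.

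Differences of this size were found at every level of signal. In the band of 4 to 5 the median was 0.19 for a member's mean size within groups and 0.24 for that between groups. It rose to 0.39 and 0.52 in the band of 6 to 8 and was 0.21 and 0.31 at 10 or more. Probe sets naming 1 gene followed the same course at lower values, with 0.09 and 0.13, 0.13 and 0.21, and 0.09 and 0.13 in these 3 bands. At equal signal the members thus differed more between arrays of 1 group than the gene probe sets did between groups, in each of these bands.

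**Figure D3:**
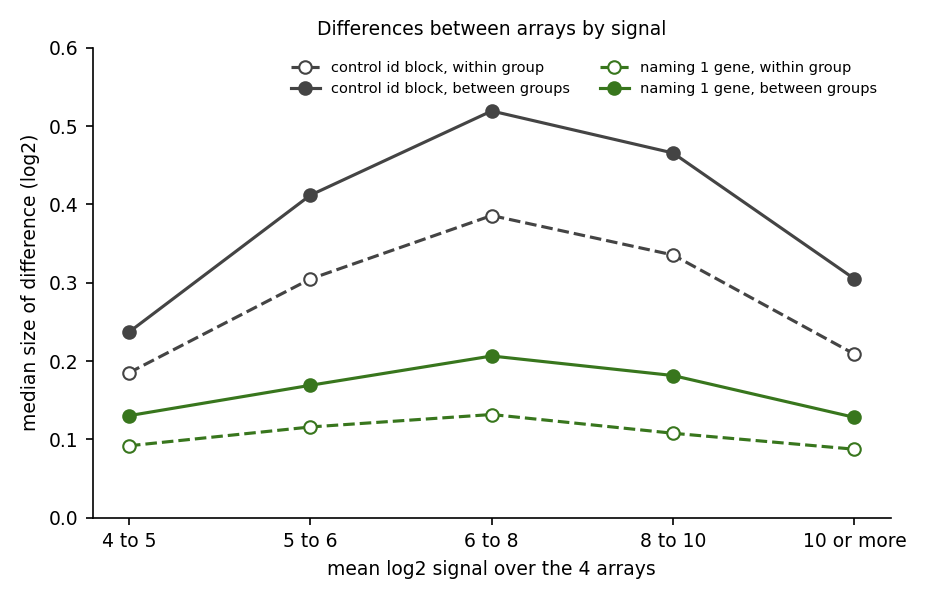
Median size of the log2 difference between arrays (y axis) by band of mean log2 signal (x axis), within groups (open points, mean of 2 pairs) and between groups (filled points, mean of 4 pairs). The members peak in the band of 6 to 8, at 0.39 within and 0.52 between groups, and the probe sets naming 1 gene lie below them in every band.

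For a given member the difference between the group means was larger than both within-group differences in 2670 cases (40.4%). Over all probe sets the share was 46.2%. After quantile normalization it was 35.4% both for the members and for all probe sets. A single array that stood apart was more often control 1 than any other. Taking an array as apart when it differed by 1 or more in log2 from each of the other 3, and those lay within 0.5 of each other, control 1 was the high array for 52 members and the low array for 48. Control 3 was high for 10 and low for 18, ethanol 2 for 11 and 10, and ethanol 4 for 4 and 7. Among the 21797 probe sets naming 1 gene such cases numbered 7 in all, of which 3 were low on control 1, 3 on ethanol 2 and 1 on ethanol 4. This definition was set after values had been seen.

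The widest gap of the whole block between replicate pools was that of probe set 10338529. It had a log2 signal of 6.69 on control 1, 12.51 on control 3, 12.56 on ethanol 2 and 12.74 on ethanol 4. The control arrays differed by 5.82, and the group difference of 3.05 had a standard error of 1.93 and an unadjusted p of 0.180 in limma. Probe set 10343030 had 4.27 on control 1 and 8.87 on control 3, with 8.06 on ethanol 2 and 6.52 on ethanol 4. Probe set 10342021 had 5.99 on control 1 and 9.98 on control 3, with 9.56 and 9.82 on the ethanol arrays. In all 3, control 1 was the low array. Between the ethanol arrays the widest gap was that of 10343814, with 8.08 on ethanol 2 and 5.55 on ethanol 4, beside 7.58 and 8.19 on the control arrays.

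Between the groups, the members had lower signals on the ethanol arrays on balance. The median difference of the members was -0.19 as deposited and -0.05 after quantile normalization, and 68.3% and 54.8% of them were lower in ethanol. For probe sets naming 1 gene the median differences were -0.14 and 0.0007, and 83.2% and 49.8% were lower. The members' array medians, set against those of the probe sets naming 1 gene on the same array, were at -0.35 on control 1, -0.41 on control 3, -0.52 on ethanol 2 and -0.45 on ethanol 4. Both ethanol arrays lay below both control arrays, by -0.10 on average (exact permutation test over the 4 arrays, two-sided, p = 0.33, the smallest that 2 against 2 allows). The same exact test of the members' medians also gave p = 0.33, and the design cannot reach a lower value.

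The shift depended on signal. Members in the bands of 5 to 6 and 6 to 8 had median differences of -0.26 and -0.29, and 74.9% and 70.5% of them were lower on the ethanol arrays. At 8 to 10 the median difference was -0.06 and at 10 or more it was -0.0016, with 54.6% and 50.3% lower. The median shift was thus close to 0 among the brightest members. Probe sets naming 1 gene had -0.17, -0.15 and -0.10 in the 3 upper bands, with 82.4%, 82.8% and 79.2% lower. After quantile normalization the members had -0.10 at 6 to 8, 0.06 at 8 to 10 and 0.04 at 10 or more. Whether the course over signal differs between members and genes was not tested.

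**Figure D4:**
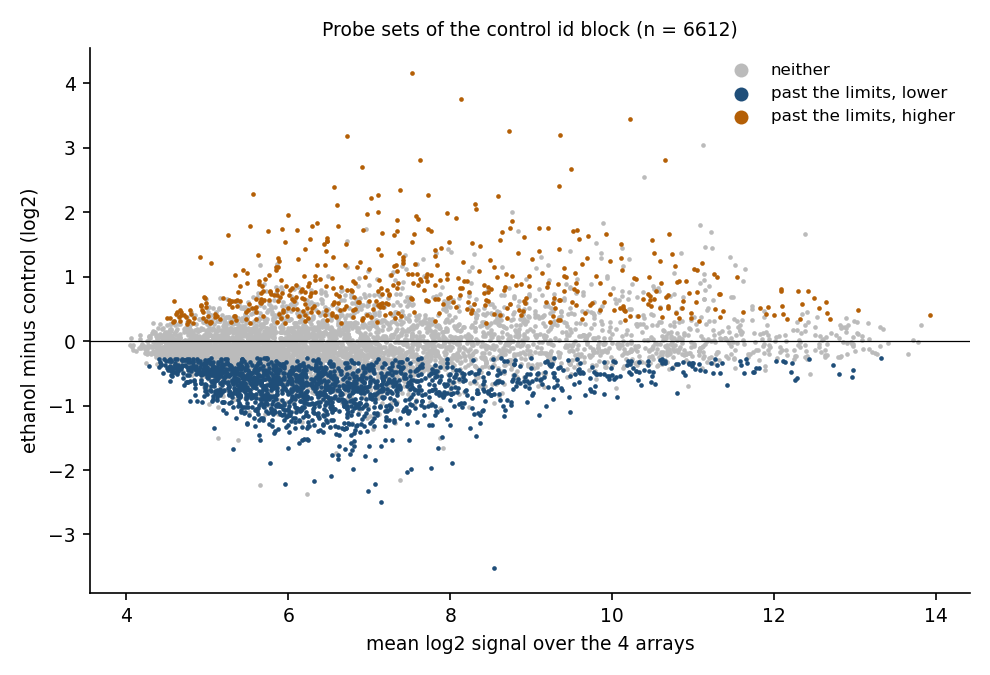
Difference between group means (y axis, ethanol minus control, log2) against mean log2 signal (x axis) for the 6612 members, as deposited. Members past the study's limits are coloured, 496 higher and 1647 lower, and the higher ones reach 4.17 while the lower ones reach -3.52.

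The moderated test of limma (two-sided) was fitted over all 35556 probe sets. To pass the study's limits, a difference had to reach 1.2-fold at an unadjusted p below 0.05. Alone, an unadjusted p under 0.05 was found for 2169 members (32.8%, against 22.2% of all probe sets). Of the members, 496 (7.50%) were past the limits and higher in ethanol, where the background over all probe sets was 2.23%. A further 1647 (24.9%) were past the limits and lower, where the background was 17.9%, and 4469 were neither. In either direction the share was 32.4%, against 20.1% of all probe sets. In the probe sets naming 1 gene 0.546% were higher and 16.0% lower. After quantile normalization 796 members (12.0%) were higher and 996 (15.1%) lower, against 5.71% and 5.87% of all probe sets, and in either direction 27.1%, against 11.6%. The members' shares were above the background in both directions and both forms. The members also varied more between like pools, with a median within-group size of 0.31 as deposited, against 0.13 over all probe sets. The limma fit moderated every variance toward a value drawn from all probe sets. How far the members' wider spread alone raised their shares was not tested. Higher members made up 23.1% of those past the limits as deposited and 44.4% after normalization. Past the limits and in the same direction in both forms were 494 higher and 995 lower members.

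Without ethanol 2, the array with low pituitary transcripts, 612 members (9.26%, against 2.42% of all probe sets) were past the limits and higher and 1324 (20.0%, against 9.84%) lower. When the treatment field set the groups, 251 (3.80%, against 0.917%) were higher and 203 (3.07%, against 0.686%) lower, and the members' median difference turned from -0.19 to 0.0145. On control 3 and ethanol 2, the only arrays on which all labels name the same group, the median difference of the members was -0.18, for which no test can be made.

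Groups without overlap were common in the whole table. Both ethanol arrays lay above both control arrays in 940 members (14.2%, against 7.25% of all probe sets) and below them in 2692 (40.7%, against 52.7%). After quantile normalization these were 1424 (21.5%, against 24.0%) and 1852 (28.0%, against 24.9%). Most of the large differences of the table lay in the block. At 2-fold or more, 193 members were higher, against 0.579% of all probe sets, and 305 were lower, against 0.962%. They are 193 of the 206 probe sets of the table that were 2-fold higher and 305 of the 342 that were 2-fold lower. At 4-fold or more there were 36 members among 38 probe sets, and the other two were Gh and the prolactin gene Prl, both low on ethanol 2 alone. Members made up 93 of the 100 largest differences between the groups, 97 of the 100 largest between the control arrays and 92 of the 100 largest between the ethanol arrays. They thus led the table within the groups as well as between them.

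Probe set 10340757 had a log2 signal of 5.55 on control 1 and 5.33 on control 3, under the 95th percentile of the receptor genes, and of 9.65 on ethanol 2 and 9.57 on ethanol 4. Its measured difference was 4.17 (standard error 0.11, n = 2 arrays per group), the largest of the table as measured. It was dim in both control pools and bright in both ethanol pools. Since its control values lay within the range of the receptor genes, it is also given against their 95th percentile on the control arrays, as at least 3.18, or at least 9.09-fold higher. Its adjusted p of 0.0263 in limma was the only one under 0.05 among all 35556 probe sets, a background of 0.00281%, and after quantile normalization 2 members were under it. Over 13 alternatives its adjusted p ran from 0.00338 to 1, and in 5 of them it was under 0.05. It was not under 0.05 with any 1 array left out (0.0539 to 0.295), with either block of paired arrays, by the methods' own test of each probe set alone, or with groups set by the treatment field. Its difference without any 1 array stayed between 4.06 and 4.27, and with groups set by the treatment field it was 0.15.

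Probe set 10341273 was of the same kind, with 5.25 and 5.02 in the control pools against 8.24 and 8.41 in the ethanol pools. Its control values also lay under the receptor percentile. The measured difference was 3.19 (standard error 0.12, adjusted p = 0.0747 in limma), at least 1.90 against that percentile, and its adjusted p was 0.0294 after quantile normalization, in a range of 0.00448 to 1 over the 13 alternatives. Probe set 10342053 had the next smallest p of the members. It had 8.69 and 8.71 in the control pools against 10.43 and 10.44 in the ethanol pools, so that both groups were tight and lay 1.73 apart (standard error 0.08, adjusted p = 0.0943 in limma).

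The others of the 10 highest differences had wider control groups. Probe set 10343447 had 6.82 and 5.68 in the control pools against 9.85 and 10.17 in the ethanol pools, a difference of 3.76 (standard error 0.40, adjusted p = 0.139 in limma). Probe set 10340586 had 8.86 and 8.12 in the control pools against 12.42 and 11.46 in the ethanol pools, a difference of 3.45. Both were bright on each ethanol array, and their groups lay apart, as the choice of these members required.

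In 6 members control 1 was the lowest array by over 1 and control 3 stood between it and the ethanol arrays. Probe set 10338498 had 7.97 on control 1, 10.54 on control 3, 12.26 on ethanol 2 and 11.86 on ethanol 4. Probe set 10344235 had 6.80, 8.71, 11.03 and 10.89 on these 4 arrays, and 10338361 had 7.20, 9.10, 10.77 and 10.88. Probe sets 10338727, 10341195 and 10340329 had the same order of groups, with differences of 3.26, 2.80 and 2.70. In these 6 the control arrays differed by 1.05 to 2.57, and the calls of 10338498 and 10341195 were lost without ethanol 2 (2.60 and 2.43), the former also without ethanol 4 (3.01). Of all 193 members that were 2-fold higher in ethanol, 124 had their lowest signal on control 1. Choosing members by this difference itself favours a control array as the lowest.

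**Figure D5:**
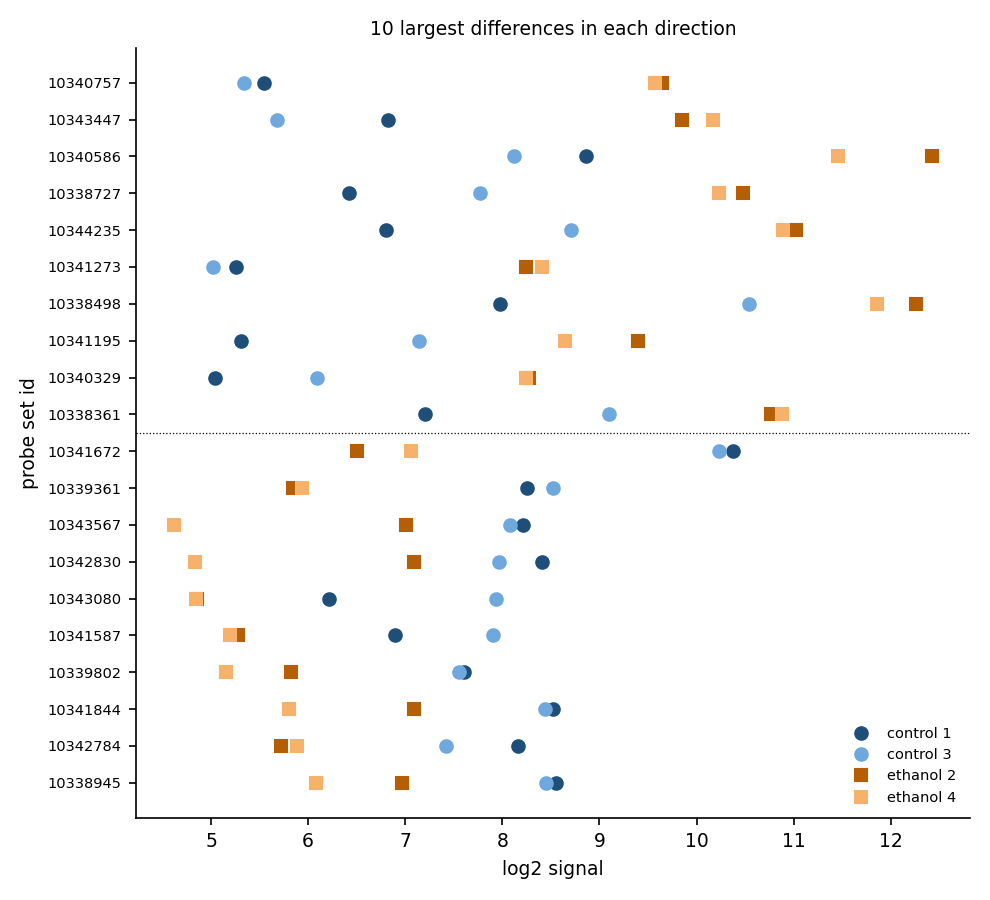
Log2 signal (x axis) on each of the 4 arrays for 20 members (y axis, probe set id, higher ones above the dotted line). They are the 10 highest and the 10 lowest differences among members past the limits with the groups apart. Circles are control arrays and squares ethanol arrays. In all 20 probe sets the groups lie apart by this choice, and the gap within a group ranges from 0.01 to 2.57.

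Among the lower members, probe set 10341672 had the largest difference. It had 10.37 and 10.23 in the control pools against 6.502 and 7.06 in the ethanol pools. On both ethanol arrays it was still above the receptor percentile of the array. It differed by -3.52 (standard error 0.21, adjusted p = 0.0990 in limma). Probe set 10339361 had 8.26 and 8.52 in the control pools against 5.84 and 5.94 in the ethanol pools, a difference of -2.50 (standard error 0.12, adjusted p = 0.0943 in limma). The ethanol values of 10339361 lay under the receptor percentile of their arrays, against which it was lower by at least 2.25. In both probe sets the groups lay far apart for their spread, and both stayed past the limits after quantile normalization, at -3.39 and -2.34.

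In 4 of the lower members the controls were tight and the ethanol arrays were not. Probe set 10343567 had 8.21 and 8.08 in the control pools, 7.01 on ethanol 2 and 4.62 on ethanol 4. Probe set 10341844 had 8.53 and 8.44 in the control pools, 7.09 on ethanol 2 and 5.81 on ethanol 4. Probe sets 10339802 and 10338945 were also lowest on ethanol 4, with differences of -2.09 and -1.98. Probe set 10342830 had 8.41 and 7.96 in the control pools, 7.09 on ethanol 2 and 4.84 on ethanol 4. Its difference was -2.22 as deposited and -2.08 after quantile normalization, where the unadjusted p of 0.0506 in limma missed the limit. The calls of 10343567 and 10342830 were lost without control 1 (-2.27 and -2.00) and without control 3 (-2.39 and -2.44).

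The remaining 3 differed more within the control group than within the ethanol group. Probe set 10343080 had 6.21 on control 1, 7.93 on control 3 and 4.86 and 4.84 on the ethanol arrays. Only on control 3 was it above the receptor percentile of the array. Its call was lost without ethanol 2 (-2.23) and without ethanol 4 (-2.21). Probe set 10341587 had 6.89 and 7.91 in the control pools against 5.27 and 5.19 in the ethanol pools, and 10342784 had 8.16 and 7.42 in the control pools against 5.72 and 5.88 in the ethanol pools. Values of the dim group also lay under the receptor percentile on both arrays for 10340329 in the control pools and for 10341587, 10339802 and 10342784 in the ethanol pools, with sizes of at least 1.84, 1.26, 1.44 and 1.65 against the receptor percentile. Of all 305 members that were 2-fold lower in ethanol, 220 had their highest signal on control 1. Here the choice itself favours a control array as the highest.

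Over all 6612 members control 1 was the highest array for 2831 (42.8%), the largest share of the 4 arrays, and the lowest for 1014 (15.3%), the smallest share. Control 3 was the highest for 1639 (24.8%) and the lowest for 1222 (18.5%). Ethanol 2 was the lowest for 2494 (37.7%). Among probe sets naming 1 gene control 1 was highest for 54.8% and lowest for 6.54%, and ethanol 2 lowest for 51.2%. Without control 1, 659 members (9.97%, against 2.73% of all probe sets) were past the limits and higher and 1423 (21.5%, against 9.80%) lower, with a median difference of -0.14. Its part in the largest differences was not tested.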

How the data were processed

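The authors scanned the Mouse Gene 1.0 ST arrays with Command Console, summarized probes in Partek Genomics Suite (version 6.6 in the submitters' processing notes, another in the methods) by the RMA algorithm with quantile normalization adjusted for GC content, and deposited log2 values. The array medians differ, so the deposited log2 values do not have equal quantiles. They were analysed unchanged and, besides, after normalizing the 4 arrays to common quantiles. No low-signal filter was applied. Genes were taken from the platform annotation, which gives 21797 probe sets 1 gene, 1613 several and 12146 none.

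The limma package (3.58.1, R 4.3.3) was used with 2 residual and 2.57 prior degrees of freedom, and Benjamini-Hochberg adjustment ran over the 35556 probe sets of the table. The procedure was tested on simulated data. Array medians were compared by exact permutation over arrays (scipy 1.17.1). With 2 arrays per group, their number limits the precision, and there is no count of molecules.

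Members named are the 10 brightest and 5 dimmest, the 10 largest differences in each direction among those past the limits with groups apart, the 3 widest gaps within each group and the 3 smallest p. A further part of the rule, on sets of identical profiles, named none. The brain, pituitary and liver markers and the receptor genes were lists of symbols, as were markers of oligodendrocytes, astrocytes, microglia, choroid plexus and erythrocytes. Differences between the groups ran from -0.19 to 0.08 over the neuronal, oligodendrocyte, astrocyte, microglia, erythrocyte and liver markers. The choroid plexus markers were lower on both ethanol arrays (differences of -0.42 for Kl, -0.24 for Folr1 and -0.15 for Ttr). The median difference of all probe sets was -0.15. Of the lists named before, Syt1, Mbp, Mobp, Slc1a3, Csf1r, Alas2 and Apoa1 were also lower on both ethanol arrays. Aqp4 was higher on both, and the groups of the rest overlapped. The pituitary markers Gh, Prl, Cga and Pomc differed by -2.82, -2.33, -1.64 and -0.53, and the receptor genes by -0.77 to 0.41. Pomc lay under the receptor percentile of every array, and its difference was within the range of the receptor genes. The members, lists and rules were chosen with earlier results of these data known. The alternatives were the treatment field as group, 3 scalings, a minimum mean log2 of 5, each array left out, 2 pairings, an intensity trend, the methods' ANOVA, a 1.5-fold limit and identical profiles counted once. Leaving out an array leaves its group with 1, taken to vary as the other group does.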

Additional observations from a re-analysis of the deposited data

How the results depend on the processing

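As deposited, 496 members were past the limits and higher and 1647 lower, with a median difference of -0.19. The relative median, which is this value less the median difference of probe sets naming 1 gene, was -0.05. It is another measure than the -0.10 between array medians given above, to which the exact test belongs. Scaling moved the balance. Quantile normalization gave 796 higher, 996 lower and a median of -0.0504. Centring each array on its median gave 1006, 833 and 0.0183, and centring on the members' own median gave 1327, 668 and 0.0915, where the median of all probe sets moved from -0.15 to 0.07 and 0.14. Grouping by the treatment field gave 251 higher, 203 lower, a median of 0.0145 and a relative median of 0.0058. The methods' ANOVA gave 173 and 561, and a 1.5-fold limit 323 and 974. The share over all probe sets was not counted for the centrings, this ANOVA, the 1.5-fold limit or the pairings below. It was not counted without control 3 or without ethanol 4 either. Whether the members were above the background in these settings was not tested. With 1 array left out, 450 to 659 were higher and 1324 to 2005 lower, and the median ran from -0.24 (without control 3) to -0.14 (without control 1), and the relative median from -0.07 (without ethanol 4) to -0.03 (without control 1). The numbers in the titles do not pair the arrays, and the labels do not say which pools share litters. A replicate block pairing control 1 with ethanol 2 gave 645 and 1922, and one pairing control 1 with ethanol 4 gave 549 and 1733. The limma-adjusted p was under 0.05 for 1 member as deposited, 2 after quantile normalization or centring and 17 when centred on the members' median, and for 0 with 1 array left out, either block or the treatment field. Requiring a mean log2 of 5, an intensity trend, or counting identical profiles once left the counts within 1.5 times.

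Of 23 named members past the limits, all kept their direction with 1 array left out, and 3 (without control 3) to 5 (without ethanol 2) fell short of the limits. By the treatment field 15 turned and 8 kept their direction short of the limits. Those that turned down were 10342763 (-0.11), 10338727 (-0.55), 10344235 (-0.89), 10338498 (-1.08), 10341195 (-0.54), 10340329 (-0.51), 10338361 (-1.01) and 10342053 (-0.0152). Those that turned up were 10343086 (0.0335), 10343567 (1.26), 10342830 (1.35), 10339802 (0.36), 10341844 (0.69), 10342784 (0.29) and 10338945 (0.50). Centred on the members' median, 10343086 was at 0.0211. The causes were not tested.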
